A study of Homo sapiens with 23 samples.

Results

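This account follows 40 genes of glycolysis and the hypoxia response in a human mammary epithelial cell line in which a Src kinase was switched on with or without knockdown of STAT3. Of the 40, 38 had a probe set that carries only their own symbol, out of 19775 genes measured in this way, and each gene is given by the brightest of its probe sets, on the mean over arrays. CA9 and SLC16A1 had none and were not analysed here. The members cover hexokinase and isomerase steps, phosphofructokinase and its PFKFB regulators, the later enzymes, lactate dehydrogenase, pyruvate dehydrogenase kinases, glucose transporters, hypoxia-inducible factor (HIF) subunits with their prolyl hydroxylases, and secreted or intracellular HIF targets.

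Glycolysis splits glucose into pyruvate, which is either oxidised in mitochondria or reduced to lactate. HIF transcription factors pair an oxygen-labile subunit, HIF1A or EPAS1, with ARNT, and they raise glucose transporters, glycolytic enzymes and angiogenic factors when prolyl hydroxylases of the EGLN family lack oxygen. STAT3, a transcription factor activated by phosphorylation downstream of Src and of IL6, is known to act on some of the same genes in tumor cells.

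The cells were MCF10A-ER-Src, a non-transformed breast epithelial line that carries v-Src joined to the hormone-binding domain of the estrogen receptor, by which 4-hydroxytamoxifen (TAM) activates Src in every group that received it and ethanol (EtOH) was its vehicle. They were transfected with 25 nM of an siRNA pool against STAT3 (siSTAT3) or of a non-targeting pool (siNEG), grown for 48 h and then given 1 µM TAM or EtOH for 24 h or 4 h, in medium with serum, EGF, insulin, hydrocortisone and cholera toxin. RNA was measured on 23 Affymetrix U133 Plus 2.0 arrays. The groups were siSTAT3 TAM, siSTAT3 EtOH, siNEG TAM and siNEG EtOH at each time, with 3 arrays each except siSTAT3 TAM 24 h, which had 2 (replicates 2 and 3). All groups share the fusion kinase and a transfection, the methods call the replicates biological, and since the labels do not say that they were separate cultures, p-values measure only the spread between these samples. TAM without the fusion was not among the groups.

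Signals are the authors' MAS5 intensities, on a linear scale in arbitrary units, with a trimmed mean of 500 units on every array and array medians of 73.5 to 85.3 units. STAT3 itself had 298.4 to 494.9 units on the siSTAT3 arrays and 3914 to 6753 units on the siNEG arrays, without overlap, as the labels state. The 3′ to 5′ signal ratio of ACTB was 1.21 to 1.44, with the lowest value of 1.21 shared by the siSTAT3 TAM 24 h pair and replicate 1 of siSTAT3 TAM 4 h. Of 10 markers of basal mammary epithelium, 7 had a probe set, with group means of 1331 to 19920 units. Markers of other cell types were mostly low, but the summed signal of 7 fibroblast markers at 24 h was 2950 to 2957 units in siSTAT3 TAM, 3143 to 3171 in siSTAT3 EtOH, 6836 to 7896 in siNEG TAM and 5726 to 5965 in siNEG EtOH, mostly from DCN. At 24 h COL1A2, COL3A1, PDGFRA, PDGFRB and LUM stayed at group means of 59.3 units or less, and COL1A1, the remaining marker, was above that limit. The 7 did not all go the same way. With siSTAT3 in EtOH cells 1 was higher and 1 lower at each time, at an adjusted p under 0.05 in the fit below. The summed signal at 24 h of 5 leukocyte markers was 651.6 to 853.4 units in siSTAT3 TAM, 799.6 to 823.2 in siSTAT3 EtOH, 824.8 to 888.3 in siNEG TAM and 952.1 to 1113 in siNEG EtOH, and that of 5 endothelial markers was 375.3 to 581.1 units over the same groups. At 4 h the fibroblast sum was 2093 to 2560 units in siSTAT3 cells and 2895 to 3510 in siNEG cells, and the leukocyte sum 541.2 to 635.7 units in siSTAT3 cells and 785.2 to 910.8 in siNEG cells, so both were separate by siRNA, and the endothelial sum was 217.9 to 494.0 units over all 4 groups. The part of these differences in the results below was not tested.

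Upstream windows are described first, though they were read after the fit given below and with its calls known. Many HIF targets hold the letters ACGTG or GCGTG, the core of the hypoxia response element, near their start. RefSeq windows from 250 bases before to 50 after a start site (GRCh38.p14) were at hand for 34 of the 38 genes, 59 windows in all. ACGTG, on either strand, stood in 24 of the 59 windows (40.7%), against 21.4% of all 35116 windows, and GCGTG in 40.7%, against 36.5%. The STAT palindrome TTCNNNGAA stood in 2 member windows (3.39%), against 7.66% of all, and the AP-1 letters TGANTCA in 3 (5.08%), against 7.71%. With a gene counted if any of its windows matched, GCGTG stood in 61.8% of the 34 member genes and 40.6% of all genes. Such shares by gene grow with the windows per gene, which were 59 for 34 member genes and 35116 for 27305 genes. HK1 and PFKM had 7 windows each. Base composition was not matched, and a match is a description of letters, not a site. Of the 9 genes whose TAM effect differed between siSTAT3 and siNEG cells at 24 h, 6 had windows and 4 of these held ACGTG in at least 1 of them. Counted by gene in this way, ACGTG stood in 20 of the 34 member genes (58.8%) and in 24.9% of all 27305 genes with windows, so 4 of 6 is close to the share of the members. These 4 windows, of genes that hold both the letters and the interaction, are printed 5′ to 3′ on the strand of the gene, with ACGTG or its reverse complement CACGT in capitals. In the form CACGTG both strands match, and the same letters are the E-box bound by MYC and related factors. The PFKFB3 window lies at chr10:6202682-6202981 on the plus strand, that of ALDOC at chr17:28576846-28577145 on the minus strand, that of PDK1 at chr2:172555840-172556139 on the plus strand and that of BNIP3 at chr10:131981874-131982173 on the minus strand.
PFKFB3: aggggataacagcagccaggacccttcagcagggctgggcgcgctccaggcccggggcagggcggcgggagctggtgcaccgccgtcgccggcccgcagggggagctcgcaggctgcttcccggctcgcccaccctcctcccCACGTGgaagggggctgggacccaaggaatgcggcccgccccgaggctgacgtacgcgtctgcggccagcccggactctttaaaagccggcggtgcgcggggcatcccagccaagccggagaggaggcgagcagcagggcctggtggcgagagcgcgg
ALDOC: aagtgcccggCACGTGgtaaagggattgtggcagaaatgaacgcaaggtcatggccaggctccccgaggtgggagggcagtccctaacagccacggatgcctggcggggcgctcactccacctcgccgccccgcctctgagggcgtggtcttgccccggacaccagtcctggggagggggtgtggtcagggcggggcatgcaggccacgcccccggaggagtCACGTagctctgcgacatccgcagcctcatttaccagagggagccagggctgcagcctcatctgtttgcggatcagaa
PDK1: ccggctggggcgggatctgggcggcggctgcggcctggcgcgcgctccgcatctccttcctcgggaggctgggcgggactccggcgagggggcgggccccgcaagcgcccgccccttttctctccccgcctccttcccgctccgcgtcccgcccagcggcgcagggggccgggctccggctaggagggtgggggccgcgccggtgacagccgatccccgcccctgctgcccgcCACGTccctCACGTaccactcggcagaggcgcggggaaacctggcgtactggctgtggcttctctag
BNIP3: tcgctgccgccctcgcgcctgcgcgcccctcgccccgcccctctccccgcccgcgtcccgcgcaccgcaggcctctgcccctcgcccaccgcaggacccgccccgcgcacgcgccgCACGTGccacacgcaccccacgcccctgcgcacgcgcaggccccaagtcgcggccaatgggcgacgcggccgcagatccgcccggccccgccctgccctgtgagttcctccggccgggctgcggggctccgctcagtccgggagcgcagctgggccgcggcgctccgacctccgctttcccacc
The capitals begin at position -108 from the start site in PFKFB3, at -240 and -28 in ALDOC, at -17 and -8 in PDK1 and at -134 in BNIP3. BNIP3 also held 4 matches to GCGTG and ALDOC held 2. The EPAS1 window held GCGTG alone, the EGLN3 window held neither form, and a second PDK1 window held the STAT palindrome at -161.

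The first question was which of the 38 genes changed after 24 h of TAM, and whether that change was the same with STAT3 knocked down. Log2 signals of all 23 arrays were fitted in 1 model with limma, and the words rose, fell, differed, passed and called are kept for an adjusted p (Benjamini-Hochberg, over all 54675 probe sets) under 0.05. SE is the standard error of a log2 difference, and intervals are 95%. In siSTAT3 cells 2 members rose with TAM at 24 h and 1 fell, where 2.00% and 0.748% of all genes did (2.75% in either direction). In siNEG cells 14 rose (6.06% of all genes) and 2 fell (9.31%), beside 15.4% of all genes in either direction. The shares of all genes, here and below, include genes of low signal and were not matched for it. Of the 54675 probe sets 24557 had a log2 mean at or above that of 100 units, while every member had a group mean above 100 units. By an unadjusted limma p under 0.05, 9 members were higher and 4 lower with TAM in siSTAT3 cells. By the same limit 17 were higher and 3 lower in siNEG cells, so the gap between the siRNAs was smaller than by calls. The share of all genes under the unadjusted limit is not given, here or below, so these counts have no background. The median TAM effect over the 38 members was 0.097 on the log2 scale in siSTAT3 cells and 0.173 in siNEG cells, beside -0.015 and -0.042 over all genes. The interaction, which subtracts the siNEG TAM effect from the siSTAT3 one, was below 0 in 9 members by this test (2.49% of all genes) and above 0 in none (3.42%, with 5.91% of all genes in either direction), where at an unadjusted p under 0.05 the counts were 13 below and 4 above. The 9 are PFKFB3, ALDOC, PDK1, SLC2A3, EPAS1, EGLN3, VEGFA, BNIP3 and NDRG1, and all 9 rose with TAM in siNEG cells. With each array centred on its median, 6 of the 9 kept their call and ALDOC, SLC2A3 and BNIP3 lost it. Fitted with the arrays of a comparison alone, which leaves few degrees of freedom, no member was called in siSTAT3 cells, 10 were in siNEG cells and 7 had a called interaction. In these bulk samples fewer cells with a transcript and less of it per cell cannot be told apart.

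**Figure D1:**
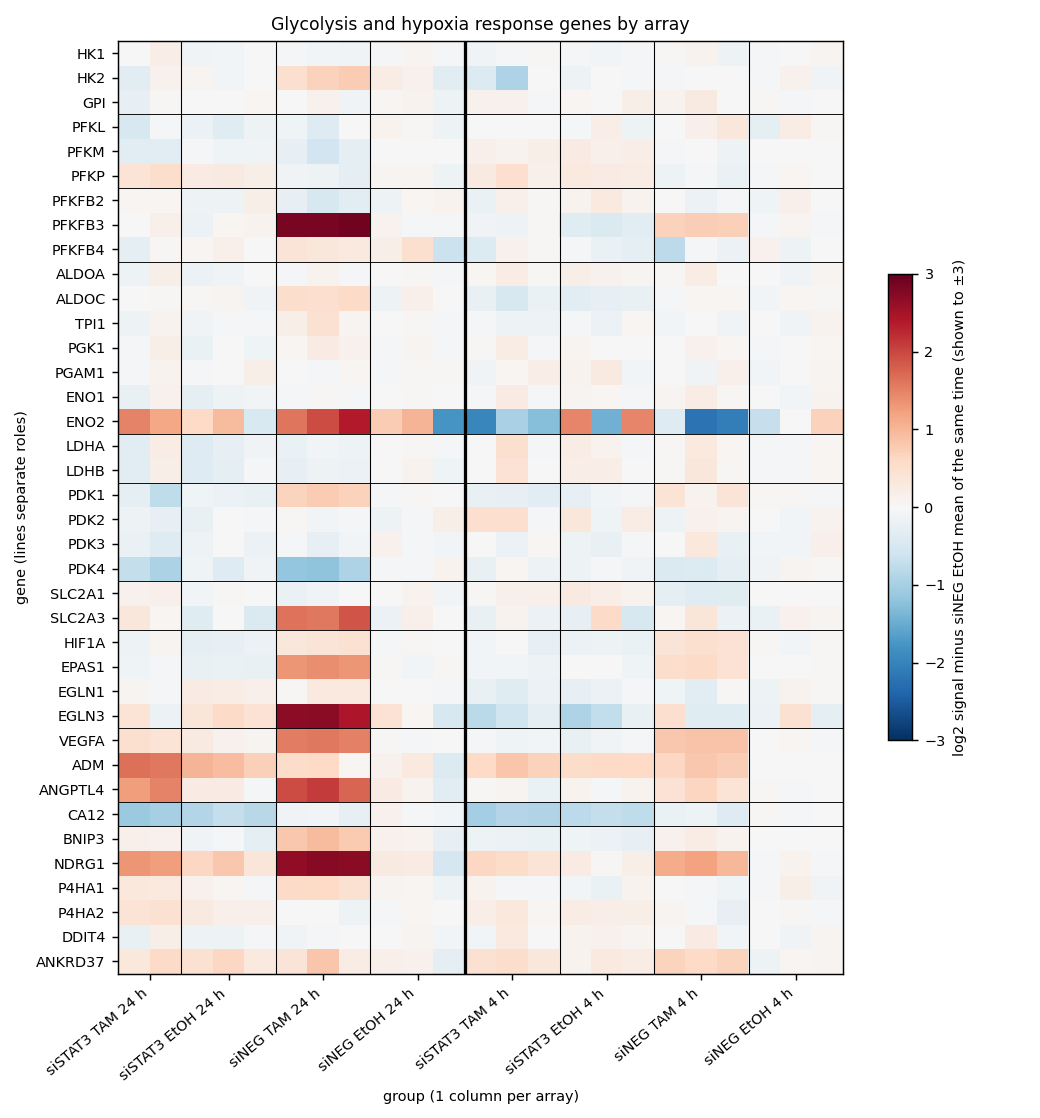
Each row is 1 of the 38 genes and each column 1 array, in groups of siRNA and treatment at 24 h (left) and 4 h (right), and the colour is the log2 signal minus the siNEG EtOH mean of the same time, shown to ±3. The siNEG TAM 24 h columns stand out at PFKFB3, EGLN3 and NDRG1, where the TAM effects are 2.86, 2.61 and 2.70, and ENO2, a gene of low signal, varies within groups.

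Among the first steps of glycolysis, HK2, the inducible hexokinase that phosphorylates glucose, had 1721 and 2369.9 units in siSTAT3 cells with TAM at 24 h, against 2276, 2047 and 2141 with EtOH. In siNEG cells it had 2992, 3510.1 and 3659 units with TAM, against 2513, 2348 and 1709 with EtOH, so the siSTAT3 arrays overlapped and the siNEG arrays did not. The log2 difference of HK2 was -0.09 (SE 0.21, adjusted p = 0.933) in siSTAT3 cells, and in siNEG cells HK2 rose by 0.64 (SE 0.19, adjusted p = 0.0347), or 1.56-fold. The interaction of HK2, -0.74 (SE 0.28, adjusted p = 0.213), missed the threshold. Without siNEG EtOH 24 h replicate 2 or 3, or siNEG TAM 24 h replicate 2 or 3, the siNEG rise of HK2 missed it too (adjusted p = 0.0548 to 0.164), and 2 other HK2 probe sets had negative differences, 1 of -0.75 (adjusted p = 0.0261) and 1 of -0.37 (adjusted p = 0.284). HK1, the constitutive hexokinase, and GPI, the isomerase of the next step, did not pass with either siRNA. The TAM effect on HK1 was 0.15 in siSTAT3 and -0.09 in siNEG cells, and that on GPI -0.13 in siSTAT3 and 0.01 in siNEG cells.

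Phosphofructokinase commits sugar to glycolysis, and its 3 subunits did not rise with TAM. PFKM was at -0.24 (SE 0.0895, adjusted p = 0.24) in siSTAT3 cells and fell by 0.36 (SE 0.0801, adjusted p = 0.00615) in siNEG cells, with 2846, 2266 and 2785 units with TAM against 3373, 3342 and 3354 with EtOH. Its interaction was 0.11, with an interval of -0.14 to 0.37 that includes 0. PFKL, at -0.03 in siSTAT3 and -0.17 in siNEG cells, and PFKP, at 0.23 in siSTAT3 and -0.18 in siNEG cells, did not pass.

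PFKFB3 makes the fructose bisphosphate that activates phosphofructokinase, and it gave the largest TAM effect of the 38 genes at 24 h. It had 1010.0 and 1129 units in siSTAT3 cells with TAM, against 905, 1067 and 1090.1 with EtOH. In siNEG cells it had 7321, 7296 and 7612 units with TAM, against 1093, 976 and 993 with EtOH. All siNEG TAM arrays stood far above the other groups, which overlapped each other. In siSTAT3 cells the difference was 0.07 (SE 0.10, adjusted p = 0.868), with a 95% interval of -0.13 to 0.27. The siNEG rise was 2.86 (SE 0.0851, adjusted p = 1.41e-12), or 7.27-fold, and the interaction was -2.79 (SE 0.13, adjusted p = 5.62e-09). Its relatives PFKFB2 and PFKFB4 did not pass, at -0.35 (SE 0.12, adjusted p = 0.0743) and 0.35 (SE 0.24, adjusted p = 0.455) in siNEG cells.

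Of the 7 later enzymes only ALDOC, an aldolase isoform best known from brain, passed at 24 h. It had 424 and 441 units in siSTAT3 cells with TAM, against 438, 454 and 397 with EtOH, and 619.9, 602 and 636 in siNEG cells with TAM, against 386, 477 and 425 with EtOH. The siNEG TAM arrays alone stood above 477 units. ALDOC was at 0.01 (SE 0.11, adjusted p = 0.987) in siSTAT3 cells and rose by 0.53 (SE 0.0941, adjusted p = 0.000852) in siNEG cells, and the interaction was -0.52 (SE 0.14, adjusted p = 0.0476). That interaction is near the threshold and was lost without any of 19 of the 23 arrays (adjusted p up to 0.136, without siSTAT3 TAM 24 h replicate 2).

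The abundant enzymes ALDOA, TPI1, PGK1, PGAM1 and ENO1 and the lactate dehydrogenases LDHA and LDHB, which turn pyruvate into lactate and back, did not pass with either siRNA, and their differences in siNEG cells ran from -0.19 for LDHB to 0.24 for TPI1. The 95% intervals of these 7 genes reached at most 0.54 upward (LDHA, -0.15 to 0.54) in siSTAT3 cells. In siNEG cells they reached at most 0.45 upward (TPI1, 0.02 to 0.45) and -0.49 downward (LDHB, -0.49 to 0.11). PGK1 depended on the probe set. Its brightest one was at 0.14 (adjusted p = 0.408) in siNEG cells, while 3 others rose, by 0.57 (adjusted p = 2.03e-05), 0.39 (adjusted p = 0.00412) and 0.50 (adjusted p = 0.0188). Of these 3, the first had an interaction of -0.60 (adjusted p = 0.00209) and the third one of -0.89 (adjusted p = 0.0155). ENO2, the neuronal enolase, had 117, 148 and 198 units in siNEG cells with TAM, against 64.7, 77.6 and 11.3 with EtOH, and its difference of 1.97 (SE 0.79, adjusted p = 0.139) had an interval of 0.29 to 3.65.

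Pyruvate dehydrogenase kinases shut the entry of pyruvate into mitochondria, and 2 of the 4 went opposite ways. PDK1, a HIF target, had 1562 and 1102 units in siSTAT3 cells with TAM, against 1711, 1668 and 1608 with EtOH. In siNEG cells it had 2986, 3183 and 3025 units with TAM, against 1836, 1938 and 1865 with EtOH. Arrays with TAM lay below those with EtOH in siSTAT3 cells and above them in siNEG cells. The siSTAT3 difference of -0.34 (SE 0.13, adjusted p = 0.239) did not pass, and the siNEG rise was 0.70 (SE 0.11, adjusted p = 0.000315). The interaction was -1.05 (SE 0.17, adjusted p = 0.001). A second PDK1 probe set rose by 1.08 (adjusted p = 0.000417) in siNEG cells, and its interaction was -1.11 (adjusted p = 0.0236).

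PDK4, the kinase induced by fasting and glucocorticoids, fell with both siRNAs. It had 519.7 and 439 units in siSTAT3 cells with TAM, against 781, 647 and 787 with EtOH, and 378, 370.3 and 447 in siNEG cells with TAM, against 811, 835 and 907 with EtOH. The change was -0.62 (SE 0.12, adjusted p = 0.0103) in siSTAT3 cells and -1.10 (SE 0.11, adjusted p = 1.65e-06) in siNEG cells, and the interaction of 0.47 (SE 0.16, adjusted p = 0.139) missed the threshold. Without siSTAT3 EtOH 24 h replicate 3 or siSTAT3 TAM 24 h replicate 3 the fall in siSTAT3 cells missed it (adjusted p = 0.0508 and 0.208). PDK2, at -0.10 in siSTAT3 and -0.04 in siNEG cells, and PDK3, at -0.18 in siSTAT3 and -0.12 in siNEG cells, did not pass.

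The transporter SLC2A3, the high-affinity glucose carrier GLUT3, had 207 and 171 units in siSTAT3 cells with TAM, against 128, 165 and 122 with EtOH. In siNEG cells it had 506, 494 and 612 units with TAM, against 147, 184 and 165 with EtOH. All siNEG TAM arrays stood above every other 24 h array. SLC2A3 was at 0.46 (SE 0.25, adjusted p = 0.501) in siSTAT3 cells and rose by 1.70 (SE 0.22, adjusted p = 4.35e-05), or 3.24-fold, in siNEG cells, and its interaction was -1.24 (SE 0.33, adjusted p = 0.0468). Leaving out any of 19 arrays ended that call (adjusted p up to 0.218, without siSTAT3 TAM 24 h replicate 3), though 2 other probe sets of SLC2A3 passed as well, at -0.85 (adjusted p = 0.0306) and -1.06 (adjusted p = 0.0371). SLC2A1, the basal carrier GLUT1, did not pass at 24 h, with 0.15 in siSTAT3 cells and -0.10 in siNEG cells.

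Both HIF subunits rose with TAM in siNEG cells. HIF1A had 15591 and 18274 units in siSTAT3 cells with TAM, against 14154, 14529.7 and 15188 with EtOH, and 21708, 22649 and 23585 in siNEG cells with TAM, against 16796, 17669 and 17182 with EtOH. The siSTAT3 difference was 0.21 (SE 0.0893, adjusted p = 0.348), the siNEG rise 0.40 (SE 0.0799, adjusted p = 0.00279) and the interaction -0.19 (SE 0.12, adjusted p = 0.537), so a difference between the siRNAs was not shown for HIF1A. EPAS1, the HIF-2 subunit, had 5076 and 5452 units in siSTAT3 cells with TAM, against 4766, 4838 and 4761 with EtOH. In siNEG cells EPAS1 had 13993, 14656 and 13814 units with TAM, against 5691, 5274 and 5711 with EtOH. The log2 difference was 0.14 (SE 0.0769, adjusted p = 0.533) in siSTAT3 cells and 1.35 (SE 0.0688, adjusted p = 5.99e-10), or 2.55-fold, in siNEG cells, and the interaction was -1.21 (SE 0.10, adjusted p = 1.78e-06).

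EGLN3, a prolyl hydroxylase that marks HIF subunits for destruction and is itself a HIF target, was low in EtOH cells. It had 155 and 103 units in siSTAT3 cells with TAM, against 149, 172 and 157 with EtOH, and 754, 765 and 628 in siNEG cells with TAM, against 157, 121 and 83.6 with EtOH. The siNEG TAM arrays did not overlap any other group. EGLN3 was at -0.33 (SE 0.32, adjusted p = 0.778) in siSTAT3 cells, rose by 2.61 (SE 0.28, adjusted p = 5.22e-06), or 6.11-fold, in siNEG cells and had the largest interaction of the 38 genes, -2.95 (SE 0.42, adjusted p = 0.000357). EGLN1, the main hydroxylase of normal oxygen, was at 0.21 (SE 0.10, adjusted p = 0.272) in siNEG cells by its brightest probe set, while 2 others rose, by 0.47 (adjusted p = 0.000792) and 0.57 (adjusted p = 0.000631).

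Of the 3 secreted targets, VEGFA had a called interaction and ANGPTL4 and ADM did not, and the genes were not tested against each other. VEGFA, the main angiogenic growth factor, had 4966 and 4729.5 units in siSTAT3 cells with TAM, against 4275, 3851 and 3730.2 with EtOH, and 10183, 10585 and 10034 in siNEG cells with TAM, against 3597, 3455 and 3540.2 with EtOH. TAM arrays were above EtOH arrays with both siRNAs. VEGFA was at 0.30 (SE 0.0780, adjusted p = 0.0691) in siSTAT3 cells and rose by 1.54 (SE 0.0698, adjusted p = 1.42e-10), or 2.91-fold, in siNEG cells, and the interaction was -1.24 (SE 0.10, adjusted p = 1.6e-06). Of its 3 other probe sets, 2 had called interactions, of -1.29 (adjusted p = 7.5e-05) and -0.88 (adjusted p = 0.0203), and the third, -0.83 (adjusted p = 0.267), was not called.

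ANGPTL4, a secreted inhibitor of lipoprotein lipase, rose with both siRNAs. It had 10965 and 12905 units in siSTAT3 cells with TAM, against 5404, 5455 and 4491 with EtOH, and 17645, 19415 and 15424 in siNEG cells with TAM, against 5449, 4878 and 3579.7 with EtOH. The rise was 1.22 (SE 0.16, adjusted p = 0.000379) in siSTAT3 cells and 1.93 (SE 0.14, adjusted p = 5.73e-08) in siNEG cells, 2.33-fold and 3.81-fold. Its interaction, -0.71 (SE 0.21, adjusted p = 0.0848) with an interval of -1.16 to -0.26, missed the threshold. ADM, the vasodilator peptide adrenomedullin, had 3834 and 3629 units in siSTAT3 cells with TAM, against 2459, 2299 and 2009 with EtOH, a rise of 0.73 (SE 0.18, adjusted p = 0.0445). In siNEG cells ADM had 1789, 1839.6 and 1267 units with TAM, against 1327, 1488 and 910.3 with EtOH, 0.40 (SE 0.16, adjusted p = 0.128), and the interaction was 0.33 (SE 0.24, adjusted p = 0.61). The call in siSTAT3 cells was lost without any of 19 arrays (adjusted p up to 0.22, without siSTAT3 TAM 24 h replicate 3). CA12, a membrane carbonic anhydrase, did not pass with TAM, at -0.25 in siSTAT3 and -0.15 in siNEG cells, though another of its probe sets had a called change of -0.50 (adjusted p = 0.0424) in siSTAT3 cells.

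Of the 6 intracellular targets, none passed in siSTAT3 cells and 4 rose in siNEG cells. BNIP3, a mitochondrial receptor of mitophagy, had 4201 and 4169 units in siSTAT3 cells with TAM, against 3539.9, 3658 and 3106 with EtOH. In siNEG cells it had 6658, 7353 and 6510.0 units with TAM, against 4159, 4116 and 3222 with EtOH. TAM arrays were the higher with either siRNA. BNIP3 was at 0.29 (SE 0.11, adjusted p = 0.239) in siSTAT3 cells and rose by 0.84 (SE 0.0946, adjusted p = 7.83e-06) in siNEG cells, and the interaction was -0.56 (SE 0.14, adjusted p = 0.035). The interaction was lost without siNEG EtOH 24 h replicate 3, siNEG TAM 24 h replicate 1 or 2, siSTAT3 EtOH 24 h replicate 1 or 2, or either siSTAT3 TAM 24 h array (adjusted p = 0.0547 to 0.125), and a second probe set gave -0.95 (adjusted p = 0.00307).

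NDRG1, a stress-induced cytoplasmic protein, had 6755 and 6456 units in siSTAT3 cells with TAM, against 4156, 4739.8 and 3475 with EtOH, and 17092, 17823 and 17722 in siNEG cells with TAM, against 3243, 3195 and 1913 with EtOH. Neither pair overlapped. NDRG1 was at 0.69 (SE 0.18, adjusted p = 0.0671) in siSTAT3 cells and rose by 2.70 (SE 0.16, adjusted p = 4.42e-09), or 6.48-fold, in siNEG cells, and its interaction was -2.01 (SE 0.24, adjusted p = 6.52e-05). P4HA1, a catalytic subunit of collagen prolyl hydroxylase, had 2763 and 2736 units in siSTAT3 cells with TAM, against 2436, 2329 and 2169 with EtOH, and 3325, 3379 and 3081 in siNEG cells with TAM, against 2356, 2330.3 and 2022 with EtOH. It was at 0.25 (SE 0.11, adjusted p = 0.358) in siSTAT3 cells and rose by 0.55 (SE 0.10, adjusted p = 0.00102) in siNEG cells, and its interaction was -0.29 (SE 0.15, adjusted p = 0.389).

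ANKRD37, a small ankyrin repeat protein, had 704 and 836 units in siSTAT3 cells with TAM, against 778, 869.9 and 695 with EtOH, and 742, 1000.0 and 663 in siNEG cells with TAM, against 629.7, 618 and 462 with EtOH. Its siNEG rise of 0.48 (SE 0.15, adjusted p = 0.0437) was lost without any of 14 arrays (adjusted p up to 0.22, without siNEG TAM 24 h replicate 2, the highest array). P4HA2, a second such subunit of collagen prolyl hydroxylase, was at 0.23 in siSTAT3 and -0.06 in siNEG cells, and DDIT4, an inhibitor of mTORC1 signaling, at 0.10 in siSTAT3 and -0.05 in siNEG cells, none of them called.

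**Figure D2:**
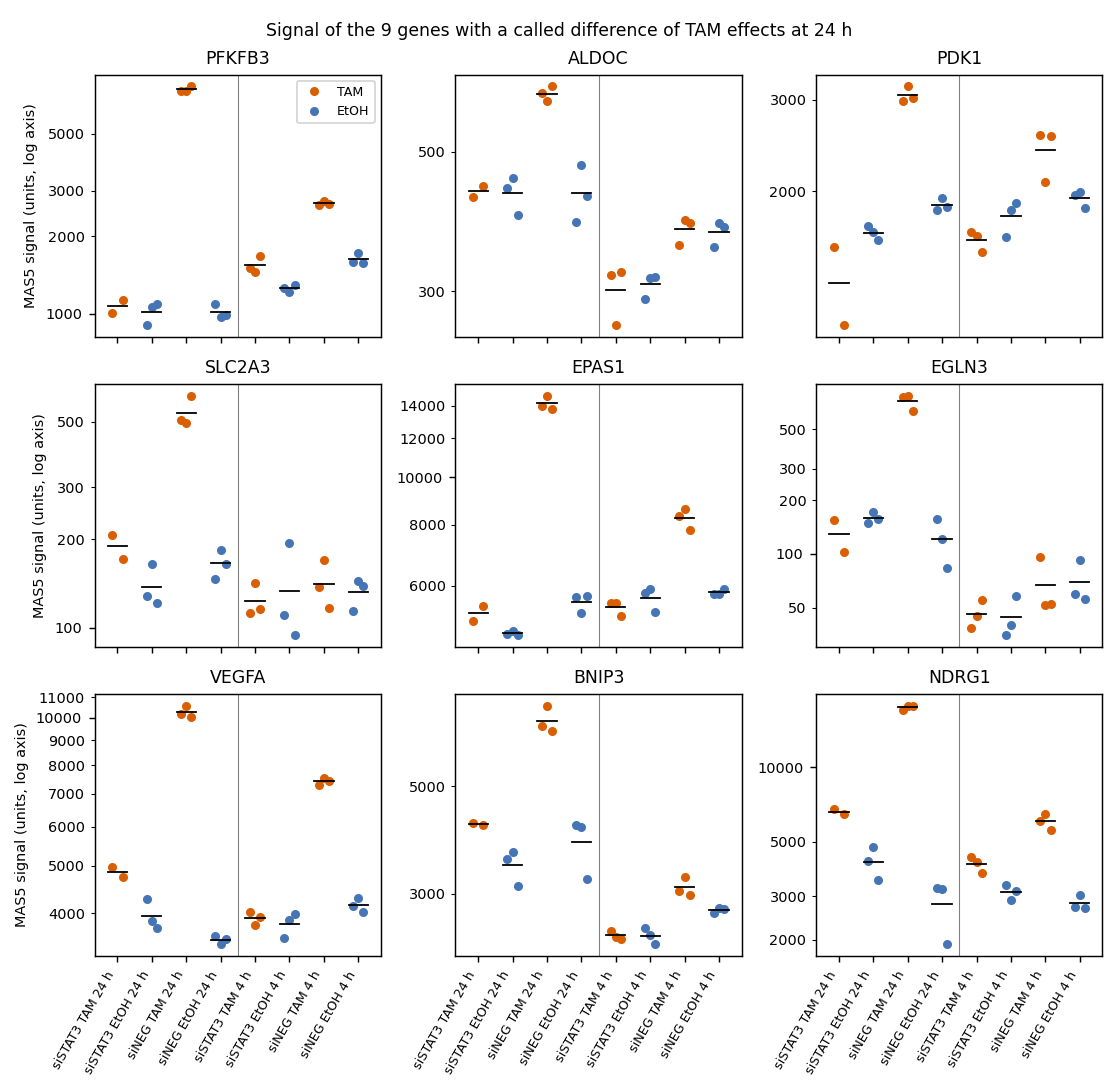
Each panel gives 1 of the 9 genes with a called interaction at 24 h, with 1 point per array, MAS5 units along a log axis, TAM in orange, EtOH in blue and a bar at each group mean. In all 9 panels the siNEG TAM 24 h points lie above every siSTAT3 TAM 24 h point, and the group means of PFKFB3 are 1069 ± 83.9 in siSTAT3 TAM (SD, n = 2) and 7409.6 ± 176 units in siNEG TAM (SD, n = 3).

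**Figure D3:**
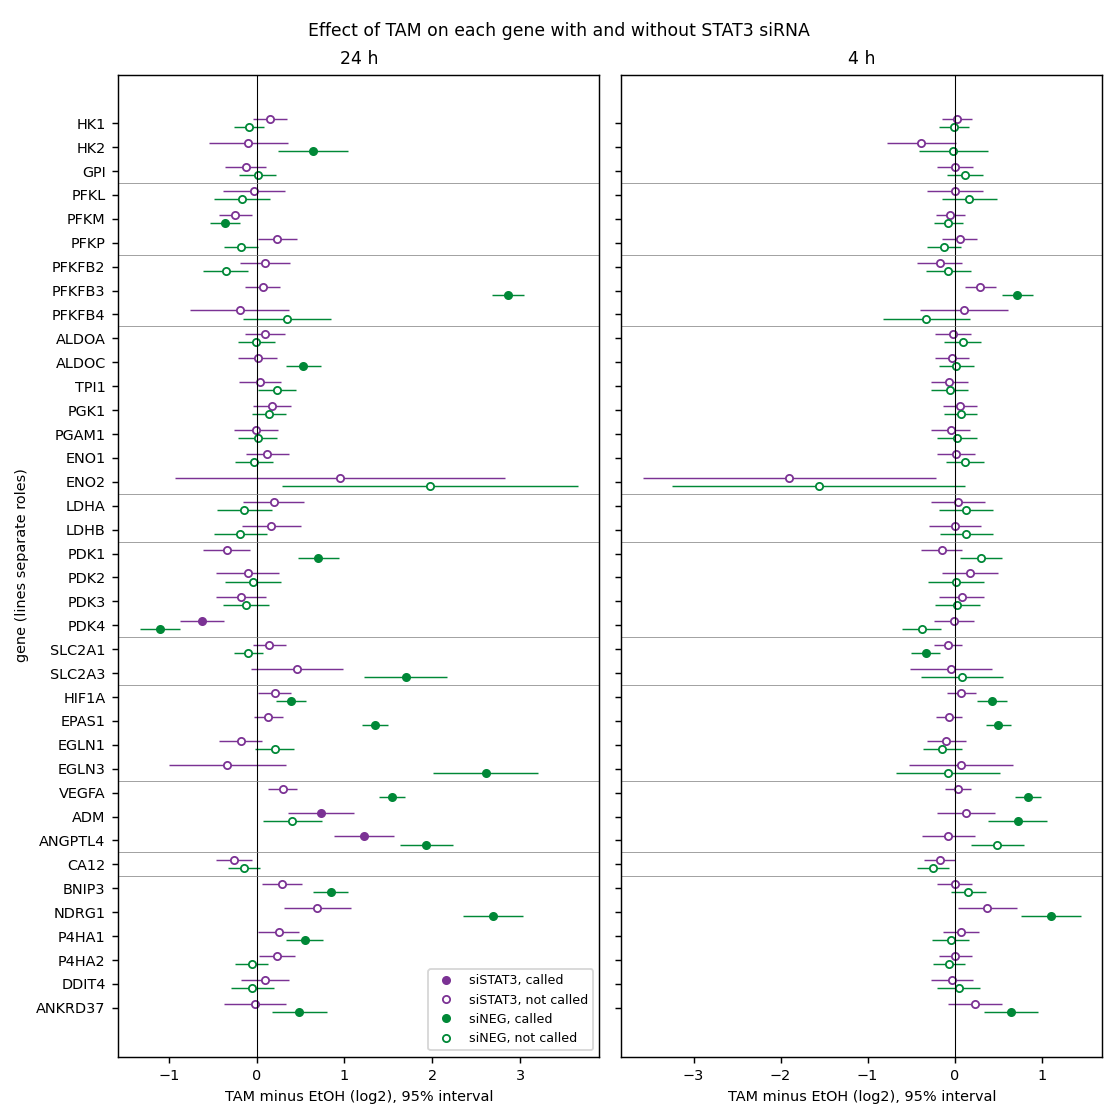
The TAM effect on each of the 38 genes (TAM minus EtOH, log2) at 24 h (left) and 4 h (right) in siSTAT3 cells (purple) and siNEG cells (green), with bars for 95% intervals and filled points for called effects. At 24 h there are 3 filled siSTAT3 points and 16 filled siNEG points, and at 4 h there are 0 and 8.

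At 4 h fewer members had moved. In siSTAT3 cells no member passed with limma at 4 h (0.819% of all genes did), where 3 had an unadjusted p under 0.05 and 1 passed when probe sets with a mean under 100 units were left out. In siNEG cells 7 rose (1.67% of all genes) and 1 fell (1.58%, and 3.26% in either direction), and centring each array on its median gave 7 and 0, and rises then made up 74.7% of all genes called, against 51.4%. The interaction at 4 h was below 0 in 2 members, EPAS1 and VEGFA (0.329% of all genes), and above 0 in none (0.192%, and 0.521% in either direction), and no 4 h effect in siNEG cells was called when the fit held only the arrays of that comparison. Of the 2 interactions 1 was called in such a fit, and with centring 14.5% of all genes called were above 0, against 36.9%.

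VEGFA gave the smallest p of the 4 h effects. It had 4013, 3776 and 3928 units in siSTAT3 cells with TAM, against 3556, 3869 and 3988 with EtOH, and 7304, 7528 and 7446 in siNEG cells with TAM, against 4140.0, 4284 and 4012 with EtOH. It was at 0.04 in siSTAT3 cells, with an interval of -0.11 to 0.19, and rose by 0.84 (SE 0.0698, adjusted p = 1.94e-06) in siNEG cells, and its interaction was -0.80 (SE 0.10, adjusted p = 7e-04). EPAS1 had 5534, 5534 and 5193 units in siSTAT3 cells with TAM, against 5807, 5900.5 and 5302 with EtOH, and 8315, 8614 and 7796 in siNEG cells with TAM, against 5769.9, 5759.8 and 5919 with EtOH. The siNEG TAM arrays again stood alone, with a rise of 0.50 (SE 0.0688, adjusted p = 0.000355), and the interaction was -0.57 (SE 0.10, adjusted p = 0.0125).

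PFKFB3 had 1508, 1456 and 1671 units in siSTAT3 cells with TAM at 4 h, against 1258, 1214 and 1299.7 with EtOH, and 2638, 2735 and 2679 in siNEG cells with TAM, against 1589.6, 1721 and 1580.3 with EtOH. TAM arrays were above EtOH arrays with both siRNAs, but the siSTAT3 difference of 0.30 (SE 0.0851, adjusted p = 0.182) did not pass and the siNEG rise of 0.72 (SE 0.0851, adjusted p = 7.03e-05) did. The interaction of PFKFB3 at 4 h, -0.42 (SE 0.12, adjusted p = 0.239), did not pass. NDRG1 had 4308, 4139 and 3732 units in siSTAT3 cells with TAM, against 3338, 2893 and 3153 with EtOH, and 6079, 6495 and 5554 in siNEG cells with TAM, against 2719, 3022 and 2687 with EtOH. It was at 0.38 (SE 0.16, adjusted p = 0.48) in siSTAT3 cells and rose by 1.10 (SE 0.16, adjusted p = 0.000659) in siNEG cells, and the interaction was -0.73 (SE 0.23, adjusted p = 0.325). HIF1A had 14494, 15583 and 13093 units in siSTAT3 cells with TAM, against 13567, 13896 and 13371 with EtOH, and 20053, 21579 and 20718 in siNEG cells with TAM, against 15793, 14632 and 15942 with EtOH, a siNEG rise of 0.43 (SE 0.0799, adjusted p = 0.00581), where the interaction was -0.35 (SE 0.11, adjusted p = 0.353).

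ADM rose by 0.72 (SE 0.16, adjusted p = 0.0199) in siNEG cells and ANKRD37 by 0.65 (SE 0.15, adjusted p = 0.0255), while SLC2A1, the carrier GLUT1, fell by 0.33 (SE 0.0773, adjusted p = 0.0277). In siSTAT3 cells ADM was at 0.13 (adjusted p = 0.899), ANKRD37 at 0.23 (adjusted p = 0.71) and SLC2A1 at -0.08 (adjusted p = 0.848). None of the 3 had a called interaction at 4 h. Group means of ADM were 4987 units with EtOH and 5457 with TAM in siSTAT3 cells, and 3332 and 5503 in siNEG cells. ANKRD37 had 689, 730.2 and 635 units in siSTAT3 cells with TAM, against 544, 615 and 589.5 with EtOH, and 802, 760.3 and 806 in siNEG cells with TAM, against 454, 524 and 537 with EtOH. These 3 calls depended on single arrays, since the count of members called in siNEG cells was 5 without any 1 of the 3 siNEG EtOH 4 h arrays or of siNEG TAM 4 h replicates 2 and 3, and ANKRD37 was also lost without siNEG TAM 4 h replicate 1 (adjusted p = 0.0812).

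Several genes of the 24 h response gave no call at 4 h. EGLN3 had 38.5, 44.8 and 55.1 units in siSTAT3 cells with TAM at 4 h, against 35.3, 40.2 and 58.1 with EtOH, and 95.6, 52.1 and 52.8 in siNEG cells with TAM, against 60.03, 92.1 and 55.7 with EtOH. SLC2A3 had 112, 142 and 116 units in siSTAT3 cells with TAM, against 111, 195 and 94.9 with EtOH, and 137, 171 and 116 in siNEG cells with TAM, against 114, 144 and 139 with EtOH. In both genes the groups overlapped at 4 h. ALDOC had 318, 265 and 322 units in siSTAT3 cells with TAM, against 292, 315 and 316 with EtOH, and 356, 390.0 and 385 in siNEG cells with TAM, against 352, 385 and 379 with EtOH. BNIP3 had 2509, 2441 and 2421 units in siSTAT3 cells with TAM, against 2542, 2465 and 2355 with EtOH, and 3043, 3247 and 2982 in siNEG cells with TAM, against 2732, 2796 and 2785 with EtOH. ALDOC overlapped too, while the siNEG TAM arrays of BNIP3 lay above those with EtOH. The siNEG differences were -0.08 for EGLN3, 0.08 for SLC2A3, 0.02 for ALDOC and 0.16 for BNIP3.

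PDK1 and PDK4 had 0.30 and -0.38 in siNEG cells at 4 h, neither called. PDK1 had 1669, 1640.2 and 1523 units in siSTAT3 cells with TAM, against 1632, 1835 and 1898 with EtOH, and 2569, 2084 and 2553 in siNEG cells with TAM, against 1969, 1994 and 1851 with EtOH. PDK4 had 690.0, 835 and 722 units in siSTAT3 cells with TAM, against 718, 787 and 749 with EtOH, and 594, 605 and 649 in siNEG cells with TAM, against 747, 845 and 815 with EtOH. The siNEG arrays of both kinases were separate, PDK1 higher and PDK4 lower with TAM. At 4 h HK2 had 2411, 1676 and 3164 units in siSTAT3 cells with TAM, against 2865, 3155 and 3129 with EtOH, and 3116, 3158 and 3217 in siNEG cells with TAM, against 3145, 3479 and 2988 with EtOH. P4HA1 had 2005, 1826 and 1826 units in siSTAT3 cells with TAM, against 1772, 1625 and 2004 with EtOH, and 1891, 1829.6 and 1699 in siNEG cells with TAM, against 1793, 2096 and 1724 with EtOH. ANGPTL4 had 11457, 11802 and 9787 units in siSTAT3 cells with TAM, against 11968, 10642 and 12100.3 with EtOH, and 15056, 17432 and 14719.7 in siNEG cells with TAM, against 11411, 10838 and 11255 with EtOH. ANGPTL4 was at 0.49 (SE 0.14, adjusted p = 0.0977) in siNEG cells, where TAM arrays were all above EtOH arrays, while HK2 and P4HA1 overlapped.

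Whether the TAM effect of siNEG cells differed between the times was tested directly, as the 24 h effect minus the 4 h effect. This difference was above 0 in 10 members (2.97% of all genes) and below 0 in 1 (2.62%), beside 5.59% of all genes in either direction. It was 2.69 (SE 0.40, adjusted p = 0.000593) for EGLN3, 2.14 (SE 0.12, adjusted p = 2.16e-08) for PFKFB3, 1.61 (SE 0.31, adjusted p = 0.00586) for SLC2A3 and 1.59 (SE 0.23, adjusted p = 0.000411) for NDRG1. Of the other positive ones, ANGPTL4 had 1.44, EPAS1 0.85, VEGFA 0.70, BNIP3 0.69, P4HA1 0.59 and ALDOC 0.52, and PDK4 was the negative one at -0.72 (SE 0.15, adjusted p = 0.0109). HIF1A, which rose at both times, had a difference of -0.03 with an interval of -0.27 to 0.21. ALDOC lost its call without any of 13 arrays and P4HA1 without any of 5 (adjusted p up to 0.111 and 0.0624), and centring the arrays on their medians left 7 above 0 and 1 below.

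Knockdown of STAT3 without TAM gave 2 called members at each time (5.26% of the 38), not fewer than the share of all genes. None was called when the fit held only the 6 arrays compared. In EtOH cells at 24 h 1 member was higher with siSTAT3 than with siNEG (1.40% of all genes) and 1 lower (1.46%), beside 2.86% of all genes in either direction. At 4 h no member was higher (1.88% of all genes) and 2 were lower (2.41%), beside 4.28% in either direction. By an unadjusted limma p under 0.05, 6 members were higher and 3 lower at 24 h. By the same limit 5 were higher and 5 lower at 4 h. CA12 was the one called lower at both times. At 24 h CA12 had 1686, 1876 and 1740.3 units in siSTAT3 EtOH cells, against 3392, 2986 and 2891 in siNEG EtOH cells, -0.80 (SE 0.0859, adjusted p = 4.67e-05). At 4 h CA12 had 1244, 1303 and 1272 units in siSTAT3 EtOH cells, against 2207, 2108 and 2130.2 in siNEG EtOH cells, -0.76 (SE 0.0859, adjusted p = 6.15e-05). No CA12 array of one siRNA reached the range of the other at either time. ADM was higher by 0.89 (SE 0.16, adjusted p = 0.00525) at 24 h, with 2459, 2299 and 2009 units in siSTAT3 EtOH cells against 1327, 1488 and 910.3 in siNEG EtOH cells, and at 4 h the difference was 0.58 (SE 0.16, adjusted p = 0.0582). PFKFB3 was lower at 4 h, with a difference of -0.37 (SE 0.0851, adjusted p = 0.0207), and did not pass at 24 h, and its 4 h call was lost without siNEG EtOH 4 h replicate 2 or siSTAT3 EtOH 4 h replicate 1 or 2, each of which left 1 member called. Centring on array medians also left 1 member lower at 4 h, and 63.8% of all genes called were then higher, against 43.8%.

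Members also differed with time in culture alone. Over 24 h minus 4 h in EtOH cells, 7 members were higher at 24 h (8.14% of all genes) and 4 lower (5.28%) with siSTAT3, beside 13.4% of all genes in either direction. With siNEG 4 were higher (6.82%) and 4 lower (5.52%), beside 12.3% in either direction. PFKFB4, a relative of PFKFB3, was higher by 1.51 (SE 0.24, adjusted p = 0.000412) in siSTAT3 and 1.26 (SE 0.24, adjusted p = 0.00232) in siNEG cells, with 389, 484 and 221 units at 24 h against 158, 131 and 146 at 4 h in siNEG cells. CA12 and BNIP3 were higher with both siRNAs, CA12 by 0.47 and 0.52 and BNIP3 by 0.48 and 0.46 in siSTAT3 and siNEG cells. ANGPTL4 and ADM were lower at 24 h with both siRNAs. ANGPTL4 differed by -1.18 (SE 0.14, adjusted p = 3.38e-05) in siSTAT3 and -1.29 (SE 0.14, adjusted p = 1.78e-05) in siNEG cells. ADM differed by -1.15 (SE 0.16, adjusted p = 0.000124) in siSTAT3 and -1.45 (SE 0.16, adjusted p = 1.53e-05) in siNEG cells. ADM had 1327, 1488 and 910.3 units in siNEG EtOH cells at 24 h, against 3304, 3307 and 3386 at 4 h. PFKFB3 was lower at 24 h with both, at -0.30 in siSTAT3 and -0.68 in siNEG cells.

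EGLN3 was higher at 24 h by 1.87 (SE 0.28, adjusted p = 0.000293) in siSTAT3 cells and was at 0.79 (SE 0.28, adjusted p = 0.103) in siNEG cells. ALDOC at 0.48, EGLN1 at 0.37 and P4HA1 at 0.36 were higher and EPAS1 at -0.24 lower in siSTAT3 cells, and PFKL at 0.64 was higher and VEGFA at -0.23 lower in siNEG cells. Fitted with the 6 arrays compared alone, 4 members were called with siSTAT3 and none with siNEG. Whether the time effects differed between the siRNAs was not tested. The siSTAT3 count of 11 fell to 7 without siSTAT3 EtOH 4 h replicate 1 or 2 or siSTAT3 EtOH 24 h replicate 1, and VEGFA lost its call without any of 20 arrays (adjusted p up to 0.158). With other probe sets VEGFA was at 0.044 and 0.028 and PFKL at -0.06 in siNEG cells. Centring on array medians gave 4 higher and 4 lower members with siSTAT3, and 43.7% of all genes called were then higher, against 60.7%.

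**Figure D4:**
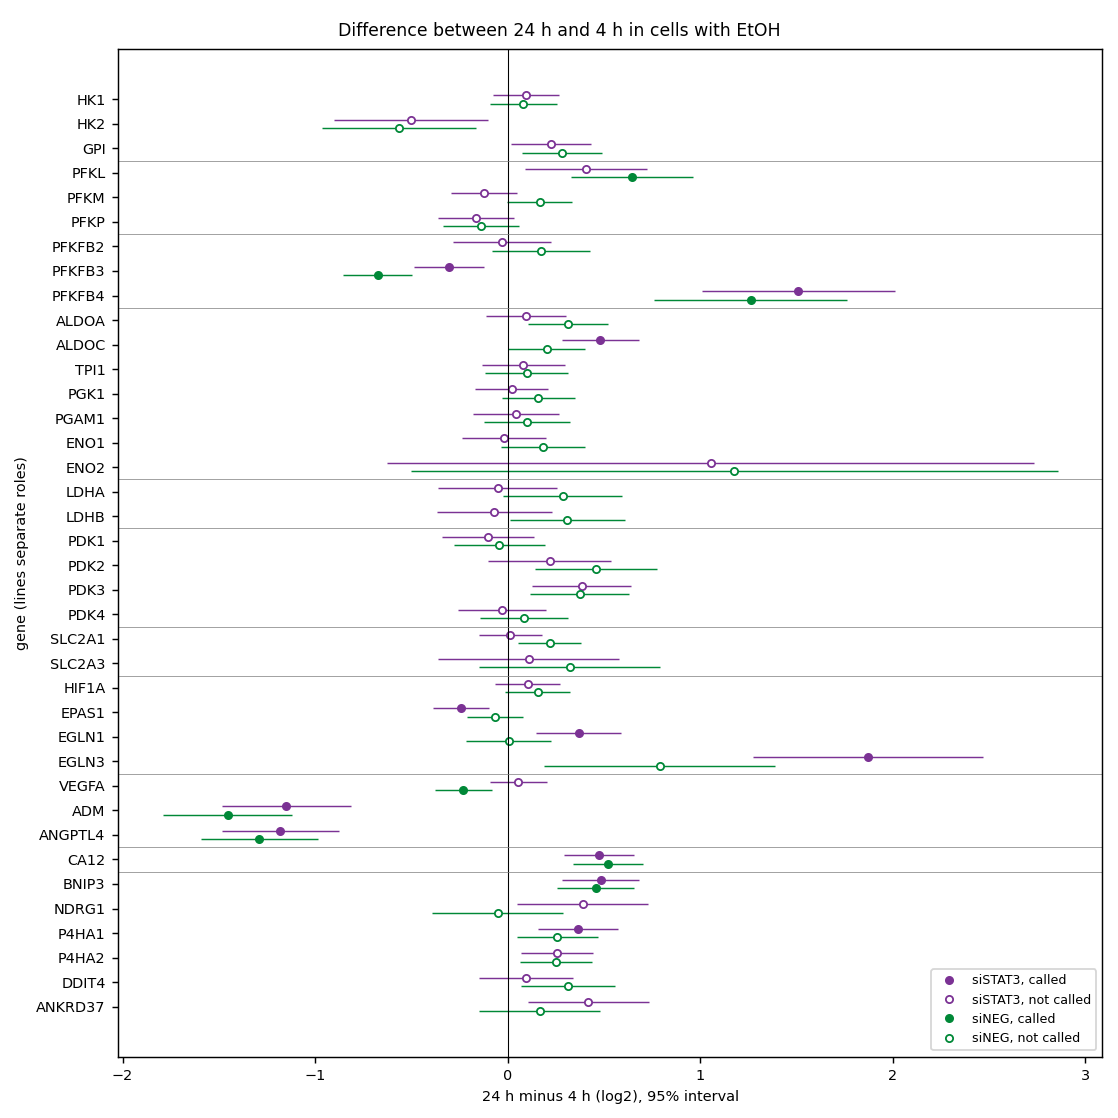
The difference between 24 h and 4 h (log2) in EtOH cells for each of the 38 genes, in siSTAT3 cells (purple) and siNEG cells (green), with bars for 95% intervals and filled points for called differences. PFKFB4 lies to the right at 1.51 and 1.26, and ADM and ANGPTL4 lie to the left of -1 with both siRNAs.

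A list of 40 further genes of glycolysis, glycogen and the hypoxia response gave 36 with a probe set of their own. With TAM at 24 h 1 of the 36 rose in siSTAT3 cells (2.00% of all genes), and 7 rose (6.06%) and 2 fell (9.31%) in siNEG cells. At 4 h none passed in siSTAT3 cells (0.819% of all genes), and 2 rose in siNEG cells (1.67%). The interaction at 24 h was called in 3 of the 36, beside 5.91% of all genes. PGM2, a phosphoglucomutase, was at 0.12 in siSTAT3 cells and 0.81 in siNEG cells, and the interaction was -0.69 (SE 0.11, adjusted p = 0.00105). ERO1A, the oxidase that renews disulfide bonds in the endoplasmic reticulum, was at 0.32 in siSTAT3 cells and 0.89 in siNEG cells, with -0.57 (SE 0.13, adjusted p = 0.017), which was lost without siSTAT3 TAM 24 h replicate 3 (adjusted p = 0.147). PDP1, the phosphatase that reverses the pyruvate dehydrogenase kinases, went the other way at 24 h, with 0.50 (SE 0.0945, adjusted p = 0.00841) in siSTAT3 cells, -0.21 (SE 0.0845, adjusted p = 0.143) in siNEG cells, and its interaction was 0.71 (SE 0.13, adjusted p = 0.00247). At 4 h PDP1 was at 0.31 (SE 0.0845, adjusted p = 0.154) in siSTAT3 cells and 0.94 (SE 0.0845, adjusted p = 4.51e-06) in siNEG cells, and its interaction was -0.63 (SE 0.12, adjusted p = 0.0268), lost without any of 10 arrays (adjusted p up to 0.0773).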

How the data were processed

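RNA from MCF10A-ER-Src cells was amplified from 100 ng with 15 cycles and hybridised to Affymetrix U133 Plus 2.0 arrays. Per the labels and methods, the authors background corrected, normalised and summarised each array with MAS5, and the deposited values are intensities on a linear scale. The 2% trimmed mean was 500 units on all 23 arrays, so a doubled level of many genes would be scaled away. Samples were grouped by siRNA, treatment and time from the labels. Log2 signals of 54675 probe sets were fitted with limma 3.58.1 in R 4.3.3, with 1 mean per group and eBayes (15 residual degrees of freedom, prior 1.271). The interaction is the TAM effect with siSTAT3 minus that with siNEG. By platform annotation 41097 probe sets had 1 symbol, 1801 several and 11777 none, and only the first kind was used for genes. The fit was tested on simulated data with independent noise on each array and changes of 2-fold or more. Smaller changes, and effects shared between arrays, were not simulated. Members and lists were chosen with earlier results of these data known. Values of every array are given for members whose interaction was called at either time with an absolute log2 of 0.5 or more and for up to 6 further called members with the largest TAM effect in siNEG cells at 24 h, others are given by value or count, and up to 4 genes are named from the second list. CA12, ADM, PFKM, PFKFB4 and ENO2, and probe sets other than the brightest, were given values after these were seen. Alternatives covered 16 units added before log2, a limit of 100 units, scaling, the arrays fitted, the replicate block, eBayes with trend, stricter limits, other probe sets and each array left out. The number of arrays limits the precision, and no count depth exists.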

Additional observations from a re-analysis of the deposited data

Results flagged for a closer look

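The TAM effect differed between siSTAT3 and siNEG cells at 24 h, by the interaction term in limma, in 9 genes. The difference was -2.79 for PFKFB3, -0.52 for ALDOC, -1.05 for PDK1, -1.24 for SLC2A3, -1.21 for EPAS1, -2.95 for EGLN3, -1.24 for VEGFA, -0.56 for BNIP3 and -2.01 for NDRG1 on the log2 scale. At 4 h it differed in EPAS1 by -0.57 and in VEGFA by -0.80. The adjusted p of each stands in the results above, and 1 of the 4 groups behind each 24 h value had only 2 arrays.

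The TAM effect in siNEG cells differed between 24 h and 4 h in 11 genes, by the same kind of term. The 24 h effect minus the 4 h effect was 2.69 for EGLN3, 2.14 for PFKFB3, 1.61 for SLC2A3, 1.59 for NDRG1, 1.44 for ANGPTL4, 0.85 for EPAS1, 0.70 for VEGFA, 0.69 for BNIP3, 0.59 for P4HA1, 0.52 for ALDOC and -0.72 for PDK4. The 4 siNEG groups held 3 arrays each, so no array was tested as standing apart from its group.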

How the results depend on the processing

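Of 76 gene results, none changed direction when 16 units were added, when the arrays were scaled otherwise or fitted otherwise, or when any 1 array was left out. Other probe sets of the same genes were compared separately. Of these comparisons 45 kept the direction and the call, 13 kept the direction without a call and 5 were reversed. Among the reversed, HK2 was at -0.75 and -0.37 with 2 other probe sets for the TAM effect in siNEG cells at 24 h. For culture time in siNEG cells PFKL was at -0.06 with 1 and VEGFA at 0.044 and 0.028 with 2. Adding 16 units and quantile normalisation each ended 1 call, centring on the array median 14, the methods' limits 27 and fitting only the arrays compared 45. The cause was not tested, except that fewer arrays leave fewer degrees of freedom.

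Counts of members called that moved beyond 1.5 times were as follows. Shares of all genes under the same settings, or with an array left out, are not set beside these counts, here or elsewhere. Whether a shift was particular to the members was not tested. With probe sets of a mean under 100 units left out, 5 members were called for TAM in siSTAT3 cells at 24 h and 1 at 4 h, 5 for siSTAT3 in EtOH cells at 24 h and 4 at 4 h, and 17 for culture time in siNEG cells. With eBayes using trend and robust settings the counts were 5 for TAM in siSTAT3 cells at 24 h, 5 for siSTAT3 in EtOH cells at 24 h and 15 for culture time in siNEG cells. Fitting only the arrays compared gave 0 for TAM in siSTAT3 cells at 24 h, 10 for TAM in siNEG cells at 24 h and 0 at 4 h, 0 for siSTAT3 in EtOH cells at either time, 1 for the interaction at 4 h, and for culture time 4 in siSTAT3 and 0 in siNEG cells. The methods' limits, p under 1e-04 and an absolute log2 over 0.5, gave 4 for TAM in siNEG cells at 4 h, 1 for siSTAT3 in EtOH cells at 4 h, and for culture time 4 in siSTAT3 and 5 in siNEG cells. Counting any probe set of a member gave 1 for TAM in siSTAT3 cells at 4 h and 13 for culture time in siNEG cells, and centring gave 1 for siSTAT3 in EtOH cells at 4 h.

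Leaving out each array in turn gave 1 to 4 members for TAM in siSTAT3 cells at 24 h and 0 at 4 h, 14 to 16 for TAM in siNEG cells at 24 h and 5 to 9 at 4 h, 2 to 3 for siSTAT3 in EtOH cells at 24 h and 1 to 3 at 4 h, 6 to 8 for the interaction at 24 h and 2 to 3 at 4 h, 7 to 13 for culture time in siSTAT3 and 6 to 9 in siNEG cells, and 9 to 11 for the time difference. The count of 1 for TAM in siSTAT3 cells at 24 h came without siSTAT3 EtOH 24 h replicate 3 or siSTAT3 TAM 24 h replicate 3.

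The interactions of PFKFB3, PDK1, EPAS1, EGLN3, VEGFA and NDRG1 at 24 h kept their call without any 1 of the 23 arrays. Replicate numbers were not taken to pair the arrays, since 18 of 77 same-numbered pairs had deviations correlated over 0.1. Pairs of other numbers were not counted in this way, so that share has nothing to be set against. The median correlation was 0.0375 for same-numbered and -0.0238 for other pairs. Of the 23 arrays, 14 were closest to their own number among the 3 numbers, a hint of pairing from the data and not from the design. With the replicate number as a block, members called for TAM numbered 4 in siSTAT3 cells at 24 h and 0 at 4 h, and 16 in siNEG cells at 24 h and 8 at 4 h. The block gave 8 for the interaction at 24 h and 2 at 4 h, 3 for siSTAT3 in EtOH cells at each time, 11 for culture time in siSTAT3 and 7 in siNEG cells, and 10 for the time difference. It ended 3 calls, those of ALDOC for the interaction and for the time difference and of VEGFA for culture time, and no other call among the 76.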
